A study of Homo sapiens with 2 samples.

Results

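RRM1, RRM2, TYMS, TK1, PCNA, FEN1, CLSPN, UNG and GINS2 serve the supply of DNA building blocks and the work of the replication fork. These 9 genes, of the 36601 features in the count tables, were listed by symbol. They were followed along a hypoxia score and along the amount of RNA captured per spot, measured as unique molecular identifiers (UMIs), in 1 section of each of 2 MDA-MB-231 tumors. All 9 were called lower at a high hypoxia score, where 8.76% of all genes tested were. Fitted over both tumors, they were lower by 18.2% to 39.6%, and each was lower in either tumor alone. FEN1 and RRM2 were also called higher in spots with many UMIs, where 2.12% of all genes tested were. A second test, DESeq2, called fewer of the 9 in both comparisons.

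MDA-MB-231 is an established line from a human breast cancer that lacks hormone receptors, here carrying a hypoxia fate-mapping reporter that marks cells once they have met low oxygen. Both tumors were left untreated and harvested 18 days after implantation, and they form a single group (n = 2). A 10 µm fresh frozen section of each was laid on a Visium slide, whose barcoded spots each capture RNA from a small area with several cells or parts of cells. The question of the series is whether a hypoxia program outlasts hypoxia in cells that move on into oxygenated tissue. The fluorescence that shows a cell's fate was not used here, so every contrast is between zones of spots within a section. The host strain, the implantation site and whether the line is 1 clone are not given in the labels, and RNA of the host that happens to map to a human gene is counted with that of the tumor.

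DNA synthesis needs a balanced supply of deoxynucleotides. Ribonucleotide reductase, a complex of the large subunit RRM1 and the small subunit RRM2, makes them from ribonucleotides, thymidylate synthase (TYMS) makes thymidine monophosphate from deoxyuridine monophosphate, and thymidine kinase 1 (TK1) makes it from salvaged thymidine. At the fork, GINS2 is a subunit of the GINS complex, which joins the MCM ring and CDC45 in the replicative helicase, PCNA is the sliding clamp that holds polymerases on DNA, and FEN1 cuts the flaps of Okazaki fragments. Claspin (CLSPN) is the fork adaptor through which ATR activates CHEK1, and uracil-DNA glycosylase (UNG) removes uracil from DNA. Many such genes are transcribed at the entry into S phase under E2F transcription factors, often with CCAAT boxes bound by NF-Y in the promoter.

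The promoter letters below show how the genes that move together in these tumors differ upstream of their start. RefSeq promoters (GRCh38.p14, the patch release of the hg38 build used for the counts) were matched by symbol for 9 of 9 genes, and only the 250 bases before each start were searched. An E2F-type word (TTCCCGC, or one of its variants TTGGCGC and TTCGCGC, or the variant TTGCCGC, on either strand) was present for 7 of the 9 genes, against 13.0% of 27305 genes with a promoter entry. CCAAT on either strand was present for 7 of 9, against 37.0% of genes. The CHR-type words TTTGAA and TTTAAA were present for 4 of 9, against 25.5% of genes, and the hypoxia-factor core words ACGTG and GCGTG for 8 of 9, against 47.4%. PCNA, RRM2, TK1 and UNG have 2 entries each, which gives them more letters in which to match. The ribonucleotide reductase, thymidylate, clamp and claspin genes are printed 5′ to 3′ on the strand of the gene, with E2F-type words and CCAAT boxes of either orientation in capitals, from chr11:4094435-4094684 (plus strand), chr18:657403-657652 (plus strand), chr20:5126623-5126872 (minus strand) and chr1:35769979-35770228 (minus strand).
RRM1: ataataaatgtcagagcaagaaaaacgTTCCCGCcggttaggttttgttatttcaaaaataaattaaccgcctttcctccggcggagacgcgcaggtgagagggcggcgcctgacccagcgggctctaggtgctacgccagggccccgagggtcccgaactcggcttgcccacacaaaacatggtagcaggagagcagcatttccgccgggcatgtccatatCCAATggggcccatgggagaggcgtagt
TYMS: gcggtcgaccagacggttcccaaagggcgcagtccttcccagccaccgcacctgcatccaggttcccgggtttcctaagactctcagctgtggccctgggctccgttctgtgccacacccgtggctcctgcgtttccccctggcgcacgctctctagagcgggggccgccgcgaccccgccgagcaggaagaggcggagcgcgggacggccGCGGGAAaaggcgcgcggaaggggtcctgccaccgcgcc
PCNA: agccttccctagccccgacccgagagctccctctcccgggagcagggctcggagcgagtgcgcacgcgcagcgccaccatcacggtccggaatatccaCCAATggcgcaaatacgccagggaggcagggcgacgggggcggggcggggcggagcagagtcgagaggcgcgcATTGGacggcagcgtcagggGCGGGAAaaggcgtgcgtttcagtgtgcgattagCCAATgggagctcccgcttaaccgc
CLSPN: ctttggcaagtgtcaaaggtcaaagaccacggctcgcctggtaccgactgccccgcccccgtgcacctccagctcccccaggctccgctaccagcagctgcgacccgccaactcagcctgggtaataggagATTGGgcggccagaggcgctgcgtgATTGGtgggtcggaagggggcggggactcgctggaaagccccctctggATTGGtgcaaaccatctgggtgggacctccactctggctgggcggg
RRM1 has both kinds of word, TYMS an E2F-type word without a CCAAT box, PCNA 1 E2F-type word with 3 CCAAT boxes, and CLSPN 3 CCAAT boxes without an E2F-type word. FEN1 has neither in its window, which says only that these letters are not in those 250 bases. No reading of factor binding was made here, and a match is not a site.

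After a minimum of 500 UMIs per spot, 2536 spots with 58661164 UMIs in tumor 1 and 2841 spots with 39735490 UMIs in tumor 2 were kept, with medians of 23574 and 15895 UMIs per spot. The sections share 1627 spot barcodes, because a barcode stands for the same array position on every slide. In each section an area of few UMIs stood apart, 22.3% of spots in tumor 1 and 30.1% in tumor 2, and it is named below wherever it falls mostly in a single zone. VIM, a mesenchymal marker high in this line, had 5639 and 5548 counts per 1000000 UMIs of the section (CPM), and the receptors that define other breast cancers were low, with ESR1 at 0.119 and 0.126 CPM and ERBB2 at 26.2 and 25.3 CPM in tumors 1 and 2. The 9 genes together gave 56829 and 41389 UMIs.

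Over whole sections the genes had similar levels in both tumors. RRM2 had 181 CPM in tumor 1 and 200.5 CPM in tumor 2, and its partner RRM1 had 114 and 119.6 CPM. TYMS had 179 and 189.5 CPM, TK1 79.5 and 84.2 CPM, PCNA 129.6 and 136 CPM, and FEN1 163 and 179.6 CPM. The lowest levels were those of UNG with 58.0 and 63.7 CPM, CLSPN with 37.5 and 37.9 CPM, and GINS2 with 27.6 and 30.2 CPM. The counting is of transcript ends, so a CPM value is not divided by length, and levels are compared below between zones and not between genes. GINS2 had a UMI in 42.6% of spots in tumor 1 and 30.3% in tumor 2, while TYMS had 1 in 85.5% and 69.4%, so that single spots say little about the less abundant genes and sums over zones were used.

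The first comparison asked how the genes stand in hypoxic tissue. The score was the mean standardized level of 28 hypoxia-inducible genes such as CA9, NDRG1 and VEGFA, none of them among the 9, averaged over a spot and its neighbours. Spots in the top quartile of the score (634 in tumor 1, 710 in tumor 2) were set against those in the bottom quartile (634 and 711). All 9 genes were lower in the top quartile by edgeR's quasi-likelihood test with the tumor as a block (Benjamini-Hochberg adjusted p of at most 0.05), where 8.76% of all 14153 genes tested were called lower. Their median log2 fold change was -0.53, against 0.00 over all genes tested. The fit scales the zones to each other and CPM do not. With totals alone the median over all genes was -0.11, so CPM fall further by score than the log2 fold changes. In a section, fewer cells in S phase and less of these RNAs per cell cannot be told apart.

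**Figure D1:**
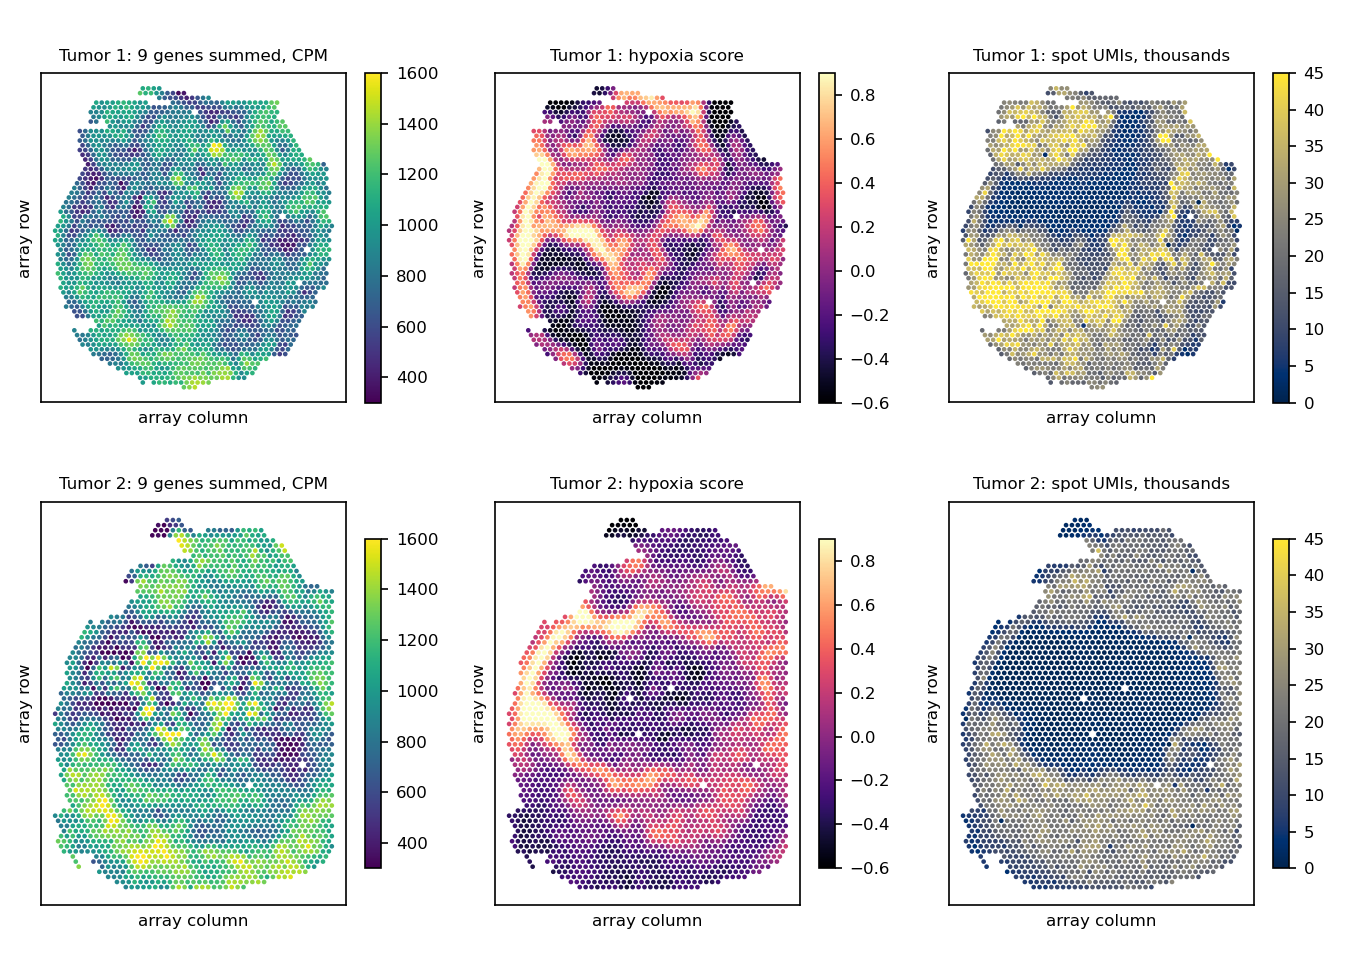
Maps of both sections, tumor 1 above and tumor 2 below, by array column and row. Each point is a spot, coloured by the 9 genes summed (CPM over a spot and its neighbours), by the hypoxia score (mean standardized units) and by its UMIs in units of 1000. The band of high score on the left of tumor 2 lies beside the large area of few UMIs, and the summed genes are patchy inside that area, where counts are small.

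The ribonucleotide reductase subunits differed in how far they fell. RRM2, at chr2:10122568-10211010 (plus strand), had 132 and 139 CPM in the top quartile of tumors 1 and 2, against 227 and 251 CPM in the bottom quartile. The zones did not overlap, and its log2 fold change was -0.70 ± 0.08 (SE, n = 2 tumors, adjusted p = 1.44e-07). RRM1, at chr11:4094685-4138932 (plus strand), had 95.9 and 99.5 CPM in the top quartile of tumors 1 and 2, against 129.6 and 134 CPM in the bottom quartile. Its log2 fold change of -0.32 ± 0.08 (adjusted p = 0.00566) was among the smallest of the 9. The zones of RRM1 did not overlap either. The number of RRM2 UMIs per RRM1 UMI was 1.379 and 1.393 in the top quartile of tumors 1 and 2, against 1.754 and 1.871 in the bottom quartile, and the quartiles between lay in order in both tumors. The difference between the subunits' fold changes was not tested.

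The thymidylate enzymes had a similar order. TYMS, at chr18:657653-673578 (plus strand), had 134 and 148 CPM in the top quartile of tumors 1 and 2, against 216 and 223 CPM in the bottom quartile. Its log2 fold change was -0.53 ± 0.08 (adjusted p = 1.62e-05). TK1, at chr17:78174079-78187204 (minus strand), had 69.8 and 70.3 CPM in the top quartile of tumors 1 and 2, against 91.2 and 94.4 CPM in the bottom quartile. The salvage enzyme had the smallest difference of the 9 genes in this comparison, with a log2 fold change of -0.29 ± 0.08 (adjusted p = 0.015). TYMS overlaps the antisense gene ENOSF1 and lies beside TYMSOS, and strand use in the counting is not given in the sources used here, so its counts are uncertain. ENOSF1 had 9.75 and 9.58 CPM in the top quartile of tumors 1 and 2, against 14.3 and 11.1 CPM in the bottom quartile, and did not pass the test (adjusted p = 0.228).

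At the fork, FEN1 and CLSPN fell furthest. FEN1, at chr11:61792911-61797238 (plus strand), had 113 and 128 CPM in the top quartile of tumors 1 and 2, against 203 and 217 CPM in the bottom quartile, a log2 fold change of -0.69 ± 0.08 (adjusted p = 1.84e-07). CLSPN, at chr1:35720213-35769978 (minus strand), had 26.2 and 27.8 CPM in the top quartile of tumors 1 and 2, against 49.6 and 46.9 CPM in the bottom quartile, a log2 fold change of -0.73 ± 0.10 (adjusted p = 5.51e-06). PCNA, at chr20:5114953-5126622 (minus strand), had 102 and 107 CPM in the top quartile of tumors 1 and 2, against 153 and 158 CPM in the bottom quartile. Its zones were as clearly apart, with a log2 fold change of -0.46 ± 0.08 (adjusted p = 1.33e-04). FEN1 lies beside TMEM258, and its counts carry the same doubt about strand as those of TYMS. TMEM258 had 916 and 743 CPM in the top quartile of tumors 1 and 2, against 872 and 687 CPM in the bottom quartile, a log2 fold change of 0.21 (adjusted p = 0.0697), and -0.08 by UMIs (adjusted p = 0.742). PCNA and RRM2 have processed pseudogenes that could share reads with them.

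GINS2, at chr16:85676198-85688954 (minus strand), had 20.1 and 22.8 CPM in the top quartile of tumors 1 and 2, against 34.9 and 36.9 CPM in the bottom quartile. Its log2 fold change was -0.63 ± 0.11 (adjusted p = 1.53e-04), with the widest SE of the 9 genes. UNG, at chr12:109097597-109110992 (plus strand), had 45.5 and 50.5 CPM in the top quartile of tumors 1 and 2, against 71.6 and 75.1 CPM in the bottom quartile, a log2 fold change of -0.50 ± 0.09 (adjusted p = 1.72e-04). For all 9 genes, both values in the top quartile were below both values in the bottom quartile. How many of all genes tested had zones apart in this way was not counted, so this is a description.

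These fits hold 4 sums and leave 1 residual degree of freedom, so the variance rests on sharing across genes. DESeq2 called 5 of the 9, without RRM1, TK1, UNG and GINS2 (adjusted p = 0.276, 0.442, 0.0709 and 0.0927), where it called 0.791% of all genes lower and gave 2744 of 14153 no adjusted p. A further setting thinned spots to 2000 UMIs and left out spots under 2000 UMIs, 15 in tumor 1 and 608 in tumor 2. Its score and zones were drawn anew from the thinned counts. With this thinning 5 were called, where 3.33% of all genes were called lower. RRM1 then had a log2 fold change of 0.02 (adjusted p = 0.973).

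Cut into 10 bins of equal spot number, the score showed where along it the genes fell, as a description without a test. In tumor 1 the summed level was 659 CPM in the highest bin, against 1213 CPM in the lowest, and it stepped down at 8 of 9 steps. In tumor 2 it was 739 CPM in the highest bin, against 1163 CPM in the lowest, with a maximum of 1294 CPM in bin 3. The levels in tumor 2 stayed near their maximum over the lower bins, averaging 1234 CPM in bins 1 to 5, and were lower beyond them, averaging 905 CPM in bins 6 to 10. The lowest bin of tumor 2 had a median of 1343 UMIs per spot, and 66.3% of its spots lay in the area of few UMIs. With that area left out, an alternative added after seeing the data, the highest over the lowest bin was 757 over 1255 CPM in tumor 2, again with the maximum in bin 3.

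**Figure D2:**
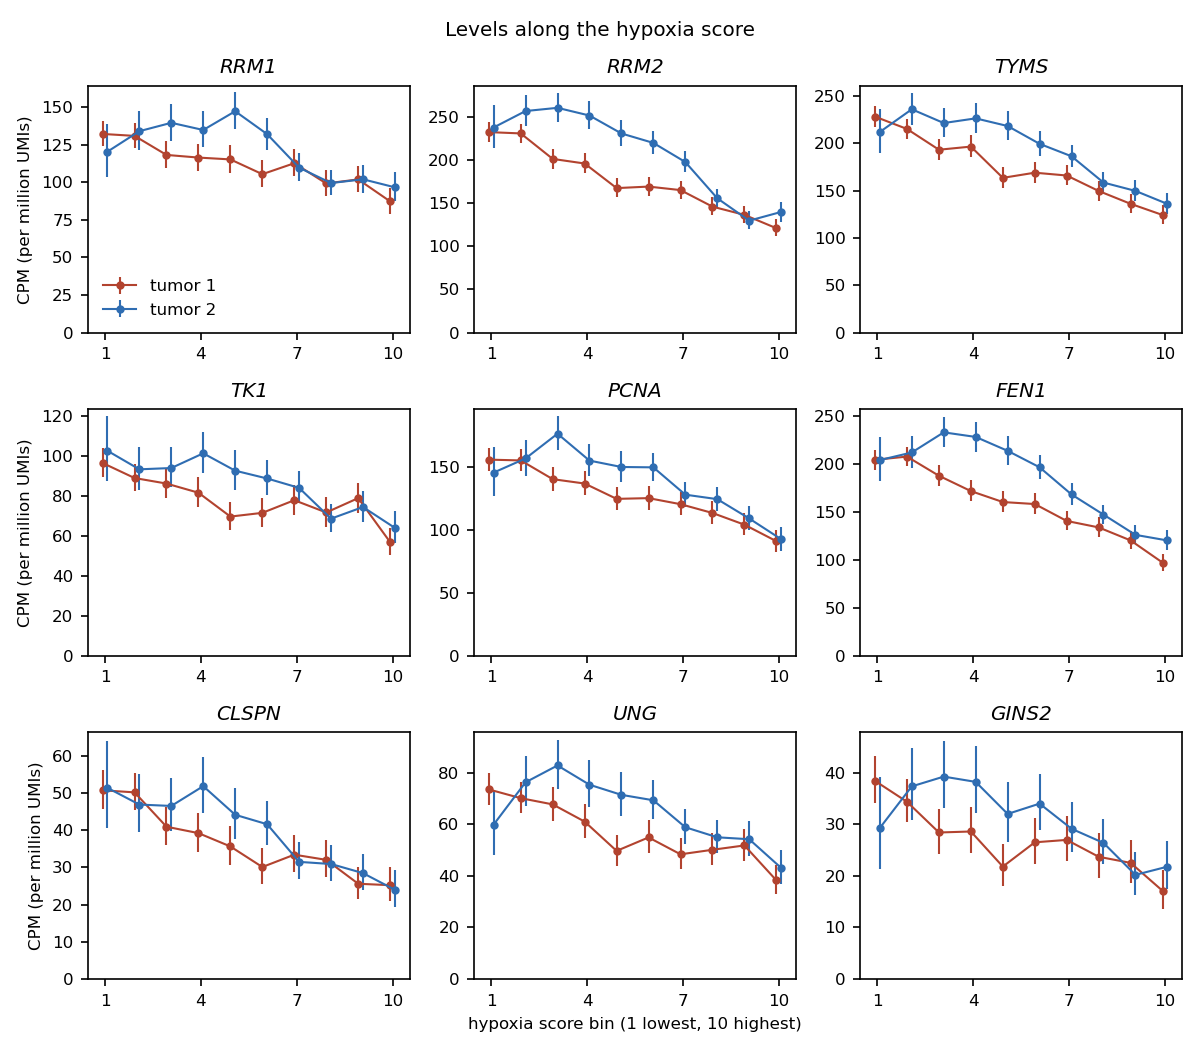
Level of each of the 9 genes (CPM) in 10 bins of spots by hypoxia score, from lowest to highest, in tumor 1 (red) and tumor 2 (blue). Bars are exact Poisson 95% intervals, which cover counting error only. In tumor 1 most genes step down along the whole score, and in tumor 2 most levels hold over the lower bins before they decline.

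Markers of other cells moved with the score in both tumors. Skeletal muscle markers (9 genes, 0 of them without a UMI) summed to 24.1 CPM in the top quartile and 901 CPM in the bottom quartile of tumor 2, and to 14.7 and 13.2 CPM in those of tumor 1. Fibroblast markers (12 genes, 0 without a UMI) summed to 808 and 1917 CPM in tumor 2 and to 1062 and 934 CPM in tumor 1. Of the fibroblast list 3 of 10 tested genes were lower, FAP, FBLN1 and PDGFRB, in each tumor, while its sum was higher in the top quartile of tumor 1. Of 7 tested macrophage and granulocyte markers (13 listed, S100A8 at 0 in tumor 1) 4 were lower, AIF1, C1QA, C1QB and TYROBP, and CD68 was higher, the same way in each tumor. The list had a median log2 fold change of -1.14, with -0.66 in tumor 1 and -1.66 in tumor 2. Its summed level, though, was higher in the top quartile. It was 251 and 214 CPM there in tumors 1 and 2, against 189 and 196 CPM in the bottom quartile. Most UMIs of this sum were of CD68, 10412 in tumor 1 and 6649 in tumor 2 over whole sections. The next markers of the list had 750 (C1QB, tumor 1) and 253 (TYROBP, tumor 2). The area of few UMIs held 10.8% of the top and 48.7% of the bottom quartile in tumor 2, and 19.7% and 10.1% in tumor 1. All 9 genes were also called lower without spots rich in those markers, where 11.2% of all genes were called lower, and without that area, where 9.91% were.

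Related genes were counted in the same comparison, in lists chosen with results of these data known. Over all genes 10.5% were called higher and 8.76% lower. Of 45 other replication fork genes, 36 were lower and 1 higher, with a median log2 fold change of -0.46. The helicase subunits GINS3 (-0.93 ± 0.18, adjusted p = 4.69e-04) and CDC45 (-0.73 ± 0.12, adjusted p = 3.78e-05), partners of GINS2, had the largest log2 fold changes of that list. The gene that was higher, named after its value was seen, was POLD4 (0.34 ± 0.08, adjusted p = 0.00384), the smallest subunit of DNA polymerase delta.

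Of 35 other nucleotide supply genes, 12 were lower and 1 higher, with a median of -0.21. SAMHD1, which breaks deoxynucleotides down, fell most (-0.80 ± 0.10, adjusted p = 6.47e-07), followed by DTYMK (-0.60 ± 0.08, adjusted p = 3.09e-06), the kinase that acts on the product of TYMS and TK1. MTHFD1L, a mitochondrial folate enzyme named after its value was seen, was called higher (0.25 ± 0.09, adjusted p = 0.0484). RRM2B, an alternative small subunit of ribonucleotide reductase, and TK2, the mitochondrial thymidine kinase, were also picked after their values were seen, as counterparts of RRM2 and TK1. RRM2B had a log2 fold change of 0.13 ± 0.14 (adjusted p = 0.574) and TK2 one of 0.15 ± 0.10 (adjusted p = 0.326), and neither passed the test.

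Of 22 genes of S phase entry and its checkpoint, 14 were lower and 1 higher, with a median of -0.42. CDC25A, the phosphatase that activates CDK2, had a log2 fold change of -1.07 ± 0.13 (adjusted p = 6.05e-07), and E2F8, an atypical repressor of the E2F family, one of -1.01 ± 0.22 (adjusted p = 0.00124). WEE1, a kinase that restrains cyclin-dependent kinases and named here after its value was seen, was higher (0.41 ± 0.11, adjusted p = 0.00752). Of 33 genes of G2 and M phase, 24 were lower and 0 higher, with a median of -0.38. KIF2C (-0.52 ± 0.10, adjusted p = 3.66e-04) and KIF23 (-0.51 ± 0.09, adjusted p = 1.59e-04), both motor proteins of dividing cells, led that list.

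Other base excision repair genes, the pathway of UNG, were called less often than other replication fork genes. Of 18 genes 3 were lower and 0 higher, with a median of -0.14, where 8.76% of all genes were called lower. MBD4, a glycosylase for mismatched thymine and uracil, was among the 3 (-0.44 ± 0.14, adjusted p = 0.0235), with PARP1 and PARP2, named after their values were seen. NEIL3, a glycosylase for oxidized bases, did not pass (-0.50 ± 0.18, adjusted p = 0.0512). For each UMI of the G2 and M genes, the 9 genes had 0.334 and 0.355 UMIs in the top quartile of tumors 1 and 2, against 0.407 and 0.401 in the bottom quartile. That difference was not tested.

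**Figure D3:**
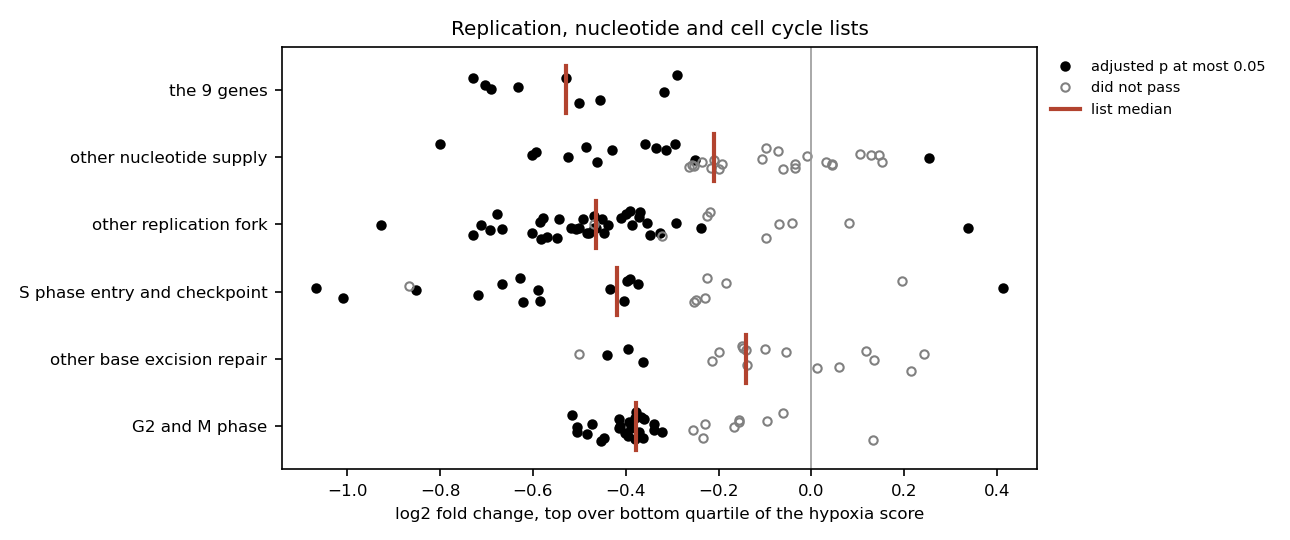
Log2 fold change of each tested gene between the top and the bottom quartile of the hypoxia score (n = 2 tumors), by list. Filled points passed the edgeR test, open points did not, and red bars are list medians, which run between -0.53 for the 9 genes and -0.14 for other base excision repair genes.

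The second comparison asked how the genes stand where much RNA was captured. Spots in the top quartile of UMIs (634 and 710) were set against the bottom quartile (634 and 711), and values are again CPM of the zone. Of the 9 genes, 2 were higher in the top quartile, FEN1 and RRM2, where 2.12% of all 14139 genes tested were called higher. The median of the 9 was 0.23 on the log2 scale, against 0.01 over all genes tested. FEN1 had 184 and 193 CPM in the top quartile of tumors 1 and 2, against 99.5 and 107 CPM in the bottom quartile. The zones lay far apart in both tumors, with a log2 fold change of 0.77 ± 0.10 (adjusted p = 1.49e-09). RRM2 had 204 and 215 CPM in the top quartile of tumors 1 and 2, against 139 and 167 CPM in the bottom quartile, and its log2 fold change was 0.37 ± 0.10 (adjusted p = 0.00767).

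The other 7 genes did not pass. GINS2 had 29.9 and 31.3 CPM in the top quartile of tumors 1 and 2, against 20.7 and 18.3 CPM in the bottom quartile, a log2 fold change of 0.48 ± 0.17 (adjusted p = 0.0636). TYMS had 198 and 204 CPM in the top quartile of tumors 1 and 2, against 163 and 153 CPM in the bottom quartile, a log2 fold change of 0.23 ± 0.10 (adjusted p = 0.179). Both genes were higher in each tumor's top quartile without passing the test. The bottom quartile of tumor 2 held 981787 UMIs in all, of which 18 were of GINS2. UNG had a log2 fold change of 0.27 ± 0.12, PCNA 0.16 ± 0.10, RRM1 0.11 ± 0.10, CLSPN 0.09 ± 0.14 and TK1 0.03 ± 0.11. For CLSPN the sign differed between tumors, with 0.14 in tumor 1 and -0.03 in tumor 2.

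FEN1 and PCNA, which act on the same Okazaki fragments, stood in another proportion in these zones. FEN1 had 1.299 and 1.318 UMIs per PCNA UMI in the top quartile of tumors 1 and 2, against 0.851 and 0.861 in the bottom quartile. The ratio was higher in the top quartile of both tumors, a difference that was not tested. In the 10 bins by UMIs, FEN1 had 186 CPM in the highest bin and 80.8 CPM in the lowest bin of tumor 1. In tumor 2 it had 197 CPM in the highest bin, 66.2 CPM in bin 2 and 187 CPM in the lowest bin, which breaks the order. That lowest bin held 47 FEN1 UMIs in 42 of 285 spots, at most 3 in a spot.

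**Figure D4:**
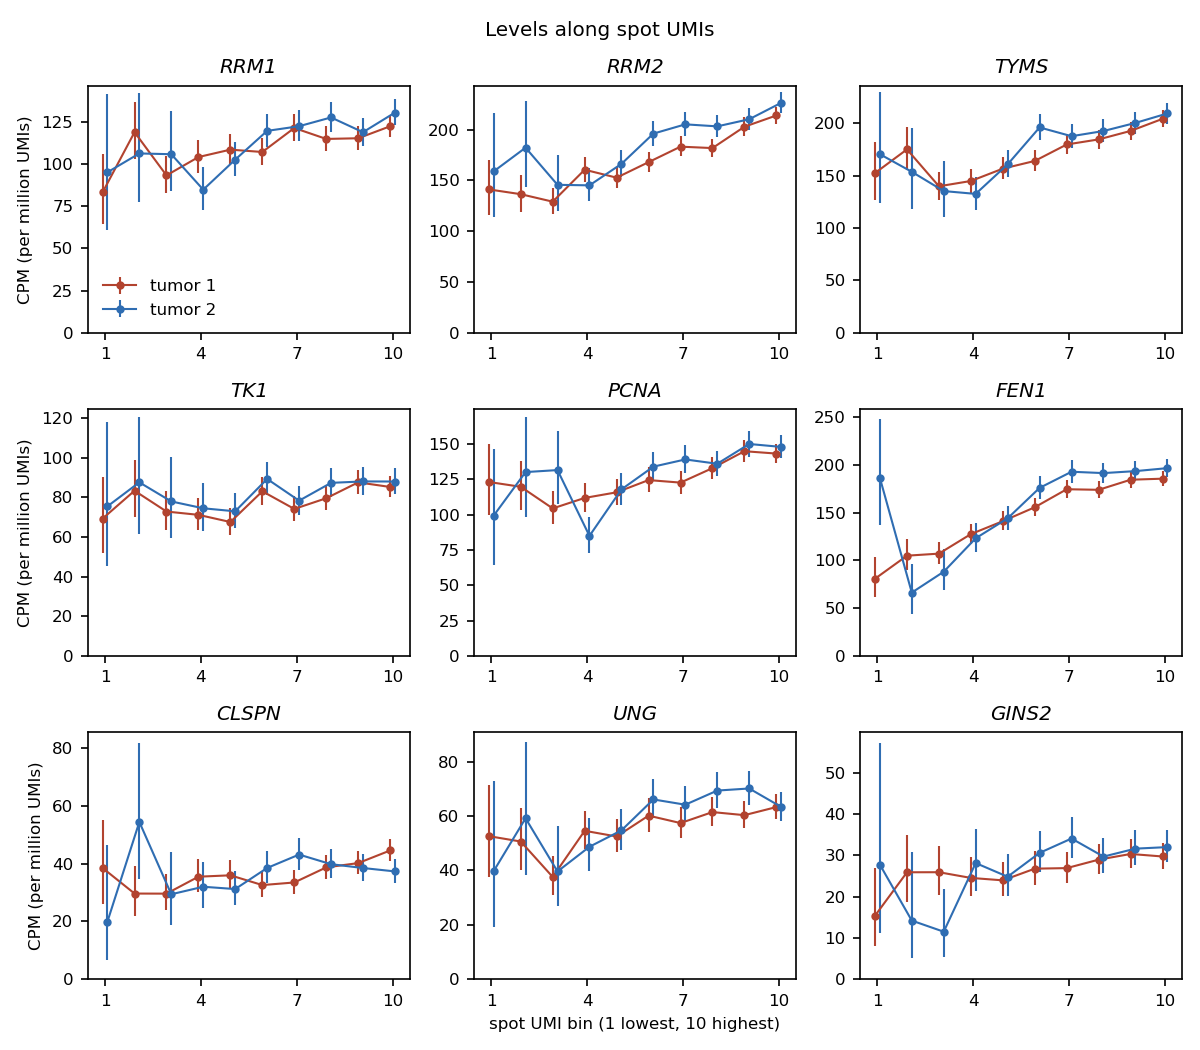
Level of each of the 9 genes (CPM) in 10 bins of spots by total UMIs, from lowest to highest, in tumor 1 (red) and tumor 2 (blue), with exact Poisson 95% intervals for counting error. FEN1 climbs most from bin 2 upward, and the intervals of tumor 2 are wide in the lowest bins.

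Markers of some other cells were lower where UMIs were many, where 622 of all 14139 genes tested were called lower. Fibroblast markers summed to 755 and 692 CPM in the top quartile of tumors 1 and 2, against 1220.3 and 1668 CPM in the bottom quartile, with 4 of 11 tested genes lower. Red blood cell markers summed to 49.8 and 25.7 CPM in the top quartile of tumors 1 and 2, against 83.1 and 54.0 CPM in the bottom quartile, with 2 of 2 tested genes lower. Of macrophage and granulocyte markers 2 of 8 tested were lower, and of adipocyte markers 1 of 2. None was called of 6 tested endothelium, 5 skeletal muscle and 2 skin epithelium markers. The part of these markers in the result was not tested. The bottom quartile of UMIs lay in the area of few UMIs for 86.0% of spots in tumor 1 and 99.2% in tumor 2. Without that area 6 of the 9 genes were called higher, RRM1, RRM2, TYMS, PCNA, FEN1 and UNG, where 3.71% of all genes were called higher, and FEN1 had a log2 fold change of 0.44 (adjusted p = 3.93e-09). DESeq2 called 0.269% of all genes higher but gave 10416 of 14139 no adjusted p, and the fit without the tumor block called 0.00707% higher. Each called FEN1 alone of the 9, with adjusted p of 0.169 and 0.215 for RRM2.

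The score and the UMIs of a spot were themselves related, and not in the same way in both tumors. Across spots Pearson's r between them was -0.21 in tumor 1 (2536 spots) and 0.24 in tumor 2 (2841 spots), as a description, since neighbouring spots share tissue and the score is smoothed. Each section was therefore divided at its median score and at its median UMIs. A model of the 8 sums took the score and the UMIs together, with the tumor as a block. Here like UMIs means the same side of the median UMIs, and like score the same side of the median score. Spots poor in UMIs were not matched further. Their medians in tumors 1 and 2 were 12743 and 6239 UMIs at high score, against 7985 and 1633 at low score. The area of few UMIs held 39.3% and 38.5% of the high-score spots among them, against 52.7% and 74.2% of the low-score spots. At like UMIs, all 9 genes were lower in high-score spots, where 8.46% of 14545 genes tested were called lower. The log2 fold changes ran between -0.52 ± 0.06 for CLSPN (adjusted p = 3.74e-05) and -0.21 ± 0.06 for RRM1 (adjusted p = 0.0207), with a median of -0.35 against 0.00 over all genes tested. All 9 were below 0 in each tumor alone.

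The CPM of these zones, without the scaling of the fit, are given for tumors 1 and 2 in turn. RRM2 had 159 and 178 CPM in high-score and 214 and 260.0 CPM in low-score spots rich in UMIs, and 128 and 122 CPM in high-score and 182 and 203 CPM in low-score spots poor in UMIs. RRM2 was highest in the low-score, UMI-rich spots and lowest in the high-score, UMI-poor spots of both tumors. FEN1 had 147 and 164 CPM in high-score and 195 and 234 CPM in low-score spots rich in UMIs, and 103 and 95.04 CPM in high-score and 159.6 and 170.5 CPM in low-score spots poor in UMIs. FEN1 had the same order at both ends. CLSPN had 29.5 and 32.8 CPM in high-score and 44.6 and 49.5 CPM in low-score spots rich in UMIs, and 29.1 and 24.8 CPM in high-score and 42.5 and 41.1 CPM in low-score spots poor in UMIs. CLSPN was lower in high-score spots at either UMI level, while its levels at high and low UMIs were close in tumor 1. TK1 had 74.4 and 78.8 CPM in high-score and 87.4 and 98.3 CPM in low-score spots rich in UMIs, and 67.4 and 63.5 CPM in high-score and 78.2 and 88.6 CPM in low-score spots poor in UMIs. TK1 differed by the same sign with smaller steps.

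These fits leave 4 residual degrees of freedom, which hold the spread between zones within a section as well as between the 2 sections. With spots thinned to 2000 UMIs, 4 were called, RRM2, TYMS, FEN1 and UNG, where 1.99% of all genes were called lower. At like UMIs markers of other cells were again lower in high-score spots, 8 of 8 tested for skeletal muscle (medians of -0.09 in tumor 1 and -5.92 in tumor 2), 5 of 11 for fibroblasts and 5 of 9 for macrophages and granulocytes, where CD68 was higher, and their part in the result was not tested.

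At like score, 3 of the 9 genes were higher in UMI-rich spots, where 0.777% of 14545 genes tested were called higher. These were FEN1 (0.42 ± 0.06, adjusted p = 6.12e-04), RRM2 (0.27 ± 0.05, adjusted p = 0.00607) and TYMS (0.23 ± 0.05, adjusted p = 0.0217). PCNA (0.19 ± 0.05, adjusted p = 0.051) and UNG (0.20 ± 0.06, adjusted p = 0.0583) lay just outside the threshold. GINS2 had a log2 fold change of 0.19 ± 0.08, RRM1 0.14 ± 0.06, TK1 0.10 ± 0.05 and CLSPN 0.08 ± 0.07, and none of these passed. Without the area of few UMIs 0 of the 9 were called, with FEN1 at 0.23 (adjusted p = 0.0577), and 0 with thinned spots, with FEN1 at 0.37 (adjusted p = 0.0599). Over all genes those 2 settings called 0.0617% and 0.00992% higher, so a count of 0 among the 9 is near the background. Without the tumor block FEN1 alone was called, where 0.0138% of all genes were. Of all 14545 genes tested, 488 were called lower in UMI-rich spots at like score. Among markers these included 8 of 8 tested skeletal muscle genes, with medians of -0.32 in tumor 1 and -4.73 in tumor 2. They also included 6 of 11 fibroblast, 3 of 3 red blood cell, 2 of 9 macrophage and granulocyte and 1 of 2 adipocyte genes. None of 6 endothelium and 2 skin epithelium genes was called. The part of the markers in the result was not tested.

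**Figure D5:**
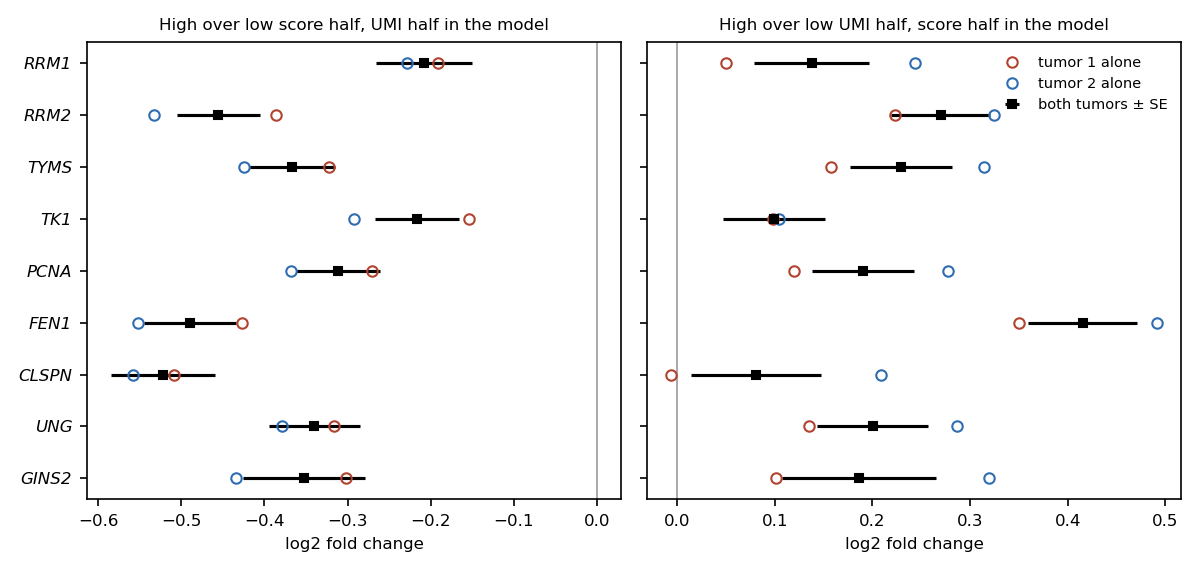
Log2 fold changes of the 9 genes from the model of 8 sums. The left panel gives high over low score with UMIs in the model, and the right panel high over low UMIs with the score in the model. Black squares are both tumors with SE (n = 2 tumors), and red and blue circles are tumors 1 and 2 alone. Every square and circle on the left is below 0, and on the right all but CLSPN in tumor 1 are above 0.

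Whether the score difference itself depends on the UMIs was tested as an interaction in the same sums. None of the 9 genes passed, where 0.0% of 14545 genes were called by edgeR and by DESeq2, and 578 had an unadjusted p under 0.05 in edgeR. The interaction, the score difference in UMI-rich spots minus that in UMI-poor spots, ran between -0.17 ± 0.11 for RRM1 and 0.19 ± 0.10 for FEN1 on the log2 scale. In FEN1 the score difference was thus smaller in UMI-rich spots in both tumors, without passing the test (adjusted p = 0.972). Simulated interactions of log2 0.5, with the same fixed dispersion for every gene, were recovered for 5% of genes. That dispersion was not estimated from these data, so the smallest difference detectable here is not known.

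The third comparison set the inner against the outer tertile of each section by steps to the tissue border, zones that use no expression value. None of the 9 genes passed in edgeR, where 3.16% of 14709 genes were called lower. An unadjusted p under 0.05 was found for 3 of the 9, and in either direction for 2847 of all 14709. GINS2 had 26.5 and 23.4 CPM in the inner tertile of tumors 1 and 2, against 29.1 and 36.4 CPM in the outer tertile (-0.35 ± 0.11, adjusted p = 0.0786). FEN1 had 158 and 149 CPM in the inner tertile, against 165 and 207 CPM in the outer tertile (-0.26 ± 0.08, adjusted p = 0.0815). For both genes the difference was larger in tumor 2 than in tumor 1. DESeq2 called 0 of the 9 as well, and 0.571% of all genes lower.

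The sections differed in this comparison. In tumor 2 all 9 log2 fold changes were below 0, between -0.61 and -0.14, and in tumor 1 they lay between -0.15 and 0.15, with 4 below 0. Summed, the 9 genes had 918 CPM in the inner and 1149 CPM in the outer tertile of tumor 2, and 983 and 957 CPM in those of tumor 1. The inner tertile lay in the area of few UMIs for 57.3% of spots in tumor 2 and 42.2% in tumor 1, against 10.6% and 7.21% of the outer tertile. Fibroblast markers summed to 399 and 537 CPM in the inner tertile of tumors 2 and 1, against 2027 and 1528 CPM in the outer tertile, with 7 of 10 tested genes lower. Skeletal muscle markers summed to 24.9 and 11.6 CPM in the inner tertile of tumors 2 and 1, against 409 and 14.96 CPM in the outer tertile, with 6 of 6 tested genes lower, and 5 of 8 macrophage and granulocyte genes were lower. Of adipocyte markers 1 of 2 tested was lower. HBB, 1 of 2 tested red blood cell markers, was called higher in the inner tertile (0.62 ± 0.10, adjusted p = 0.00117). None of 5 endothelium and 2 skin epithelium markers tested was called. The part of these markers in the differences was not tested. Without spots rich in markers of other cells, RRM2, FEN1 and GINS2 were called lower, where 3.2% of all genes were (adjusted p = 0.0174, 0.00177 and 0.00549).

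Among themselves the 9 genes followed each other over the tissue. Over 20 bins per tumor, 10 by score crossed with 2 by UMIs, all 36 pairs had a Pearson correlation of log2 CPM above 0 in both tumors, with medians of 0.83 in tumor 1 and 0.81 in tumor 2. TYMS with PCNA was the closest pair in tumor 1 (0.961) and TYMS with FEN1 in tumor 2 (0.947). The least alike were TK1 with UNG in tumor 1 (0.553) and RRM1 with UNG in tumor 2 (0.581). The bins share spots' depth and the score by which they were cut, so these correlations are descriptions.

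Of the 9 genes FEN1 had the highest Moran I, a measure of how alike adjacent spots are, with 0.282 in tumor 1 and 0.297 in tumor 2, where NDRG1, a gene of the score, had 0.630 and 0.444. RRM2 followed with 0.208 and 0.237, and GINS2 had 0.0540 and 0.103. The index falls with sparse counts, so these values do not order the genes by how patchy their expression is.

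Outside the 9, the genes whose pattern over the same 20 bins was most like their sum, among 6565 genes of at least 20 CPM, came from several functions. They were HNRNPA2B1, an RNA-binding protein (r of 0.970 and 0.968 in tumors 1 and 2), TUBA1B, an alpha tubulin (0.960 and 0.974), H2AFZ, the histone variant H2A.Z (0.982 and 0.946), MRPS7, a protein of the mitochondrial ribosome (0.948 and 0.972), and CCND3, the cyclin D3 of G1 phase (0.973 and 0.944). Of the 9 themselves, which are part of the sum, FEN1 ranked 1 and TK1 319 among those genes.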

How the data were processed

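The measurements are UMI counts per gene and spot in Visium sections of 2 tumors. The authors deposited raw counts with array positions, which per the file headers come from Space Ranger 1.3.0. The build, per the submitters' processing notes, is hg38. Images were not used here. Spots called as tissue were kept if they had 500 UMIs or more. The score was the mean standardized log2 of 1 plus UMIs per 10000 over 28 genes, each detected in at least 5% of spots, averaged over adjacent spots. The area of few UMIs was found by an Otsu threshold on smoothed log10 UMIs. In the border comparison, off-tissue areas of 5 or more positions were border.

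UMI sums per tumor and zone were fitted in edgeR 4.0.16 (TMM, filterByExpr, quasi-likelihood test, tumor as a block), with Benjamini-Hochberg adjustment over all genes tested. Zones of a tumor come from the same animal, so the block pairs them. The fits of 4 sums leave 1 residual degree of freedom, those of 8 sums 4 (3 with the interaction), so p-values of the fits of 8 sums also measure the spread between zones within a section. The log2 values of single tumors come from fits to the sums of that tumor alone, without a test. CPM, counts per 1000000 UMIs, use the zone's total without TMM, with exact Poisson 95% intervals for counting error only. Tested on simulated counts with 200 changed genes, the 6 fits in the order of the text recovered 29%, 26%, 66%, 75%, 5% and 21% of genes changed by log2 0.5, and 96%, 98%, 100%, 100%, 57% and 93% at log2 1, with 2 to 11 false calls.

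The 9 genes and all lists were chosen with earlier results of these data known. All 9 were named in every comparison, with the 2 genes of each list that had the largest log2 fold change in the score comparison and the 5 genes most like the sum. Markers of endothelium, macrophages and granulocytes, red blood cells, adipocytes and skin epithelium were also summed. Alternatives were DESeq2 1.42.0 and its size factors, library size alone, no filter, no block, other minimums, thinning, zone widths and scores, and leaving out a tumor, marker-rich spots (the top 10%) or the area of few UMIs. Versions were R 4.3.3, Python 3.11.15 and scipy 1.17.1.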

Additional observations from a re-analysis of the deposited data

How the results depend on the processing

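All 9 genes were called lower in the top score quartile under every alternative but DESeq2 and thinning to 2000 UMIs, which called 5 each, and no replicate block, which called 7. The fit without the block called 276 of all 14153 genes lower. At like UMIs all 9 were called except with thinning (4) and no replicate block (8, where 454 of all 14545 genes were called lower). For high against low UMIs, 2 genes were called in the tests above, against 5 with library size alone, 1 with DESeq2, 1 with no replicate block, 6 without the area of few UMIs and 4 with tertiles. Library size alone called 915 of all 14139 genes higher there, and tertiles 397 of 14611. At like score 3 were called, against 6 with library size alone, 5 with no filter, 5 with an unsmoothed score, 1 with no replicate block, 0 with thinning and 0 without the area of few UMIs. The first 3 of these settings called 690 of 14545, 399 of 24851 and 190 of 14664 genes higher. In the inner tertile 0 were called, against 2 with no filter, 3 with at least 2000 UMIs per spot, 3 without marker-rich spots, 1 with the frame edge as border and 2 with quartiles. Those settings in turn called 755 of 23820, 793 of 14528, 466 of 14568, 987 of 14727 and 518 of 14031 genes lower. The log2 of the highest over the lowest UMI bin, summed over the 9 genes, was 0.45 on average and 0.57 without the area of few UMIs, an alternative added after seeing the data. No interaction was called for the 9 genes under any alternative.

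Signs turned mostly with thinning, which keeps few UMIs of these genes. RRM1 then had 0.015 by score, -0.17 by UMIs, -0.12 by UMIs at like score, 0.059 in the interaction (0.033 without the area of few UMIs) and 0.15 in the inner tertile. TK1 then had -0.073 by UMIs, -0.079 by UMIs at like score and 0.17 in the inner tertile, PCNA had 0.38 in the inner tertile, and CLSPN had -0.026 by UMIs at like score, and -0.0063 with tumor 1 alone, against 0.21 with tumor 2 alone. The cause of these changes was not tested. With a tumor left out, only zones of 1 animal remain, so every fit gives values without a test.

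Over all genes, library size alone shifted the median log2 fold change to -0.11 by score and 0.12 by UMIs. It gave 927 higher and 2546 lower calls by score, against 1480 and 1240 with TMM, and 915 and 410 by UMIs, against 300 and 622. The 9 genes then had a median of -0.64 by score, below that shift, and 0.33 by UMIs, above it. At like score it gave 690 higher and 314 lower calls, against 113 and 488, and at like UMIs 830 and 2193, against 1375 and 1230. Over the alternatives the genes called numbered 479 (DESeq2) to 3473 (library size alone) by score, where edgeR called 2720, and 83 (no replicate block) to 1570 (without the area of few UMIs) by UMIs, where it called 922. They numbered 582 (thinning) to 3313 (without the area of few UMIs) at like UMIs, against 2605, 37 (no replicate block) to 1119 (no filter) at like score, against 601, 0 to 38 (no filter) in the interaction, against 0, and 44 (no replicate block) to 1757 (frame edge as border) by border, against 763.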
